A study of Caenorhabditis elegans with 80 samples.

Results

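Basement membranes are thin sheets of extracellular matrix that lie under epithelia and around muscle, pharynx and gonad. In Caenorhabditis elegans, type IV collagen and laminin each form a network in these sheets, and nidogen, perlecan and type XVIII collagen associate with both networks. Body wall muscle and the somatic gonad are major sources of the secreted proteins. The 10 genes described here code for the core of this matrix. They are the type IV collagen chains emb-9 and let-2, the laminin beta chain lam-1, gamma chain lam-2 and alpha chains lam-3 and epi-1, the nidogen gene nid-1, the perlecan gene unc-52, the type XVIII collagen gene cle-1 and the SPARC gene ost-1. They were chosen by name, with earlier results of these data known. All 10 were found among the 46904 genes of the table, and all 10 passed the filter on low counts.

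RNA was sequenced from whole hermaphrodites of the wild-type strain N2 and of CF1038, which carries daf-16(mu86), an allele of the FOXO transcription factor of insulin-like signalling. N2 was harvested at days 6, 8, 11, 14 and 18 with 6 libraries at each age, and a second set of 30 N2 libraries was compared with 20 CF1038 libraries at day 6. All groups, the controls included, grew at 20 °C on agar plates with OP50-1 bacteria and streptomycin, and FUDR, which blocks progeny production, was added to all of them. Whether libraries of a group stem from separate cultures is not in the labels, and p-values here cover only the spread among these libraries, which may be technical. The libraries held about 34440000 to 44160000 expected counts each. In CF1038, daf-16 lay between 75.5 and 107 CPM (counts scaled to library size with TMM factors), below every N2 library of its set (134 to 191 CPM), so reads of the gene remained in the mutant.

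Libraries stood apart by their number within a group, although the labels give all 80 libraries 1 batch value. At day 14, emb-9, let-2, cle-1, nid-1, unc-52 and ost-1 were higher in each of libraries 1 to 3 than in any of libraries 4 to 6, and at day 18 the same held for these genes except cle-1. At day 6 the order was the other way round: emb-9, let-2, cle-1, lam-1, epi-1, nid-1 and ost-1 were lower in libraries 1 to 3. At day 8, cle-1 and ost-1 were higher and lam-3 lower in libraries 1 to 3, and at day 11 no member was apart. Such a lack of overlap was seen in 45.6% of all tested genes at day 14, 33.4% at day 18, 32.3% at day 11, 18.8% at day 8 and 26.6% at day 6. The summed level of 10 body wall muscle marker genes, none of which was at 0, was higher without overlap in libraries 1 to 3 at days 14 and 18. The same held at day 11, where no member was apart, with 2077 to 3002 CPM against 1652 to 1898 CPM. At day 6, where members were apart, its ranges overlapped, at 1657 to 2578 and 2318 to 3327 CPM. At day 14 it was 2099 to 2377 CPM in libraries 1 to 3 and 1007 to 1403 CPM in libraries 4 to 6. The mean sum of the 5 intestinal markers found was 32190 against 13800 CPM in the same libraries. These 5 include the yolk protein gene vit-2, and a sum of CPM gives most weight to the most abundant genes. The part of tissue content in the results below was not tested, and in RNA from whole worms fewer cells of a type and less RNA per cell cannot be told apart. For the results most marked by this split, values in both sets of libraries are given.

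**Figure D1:**
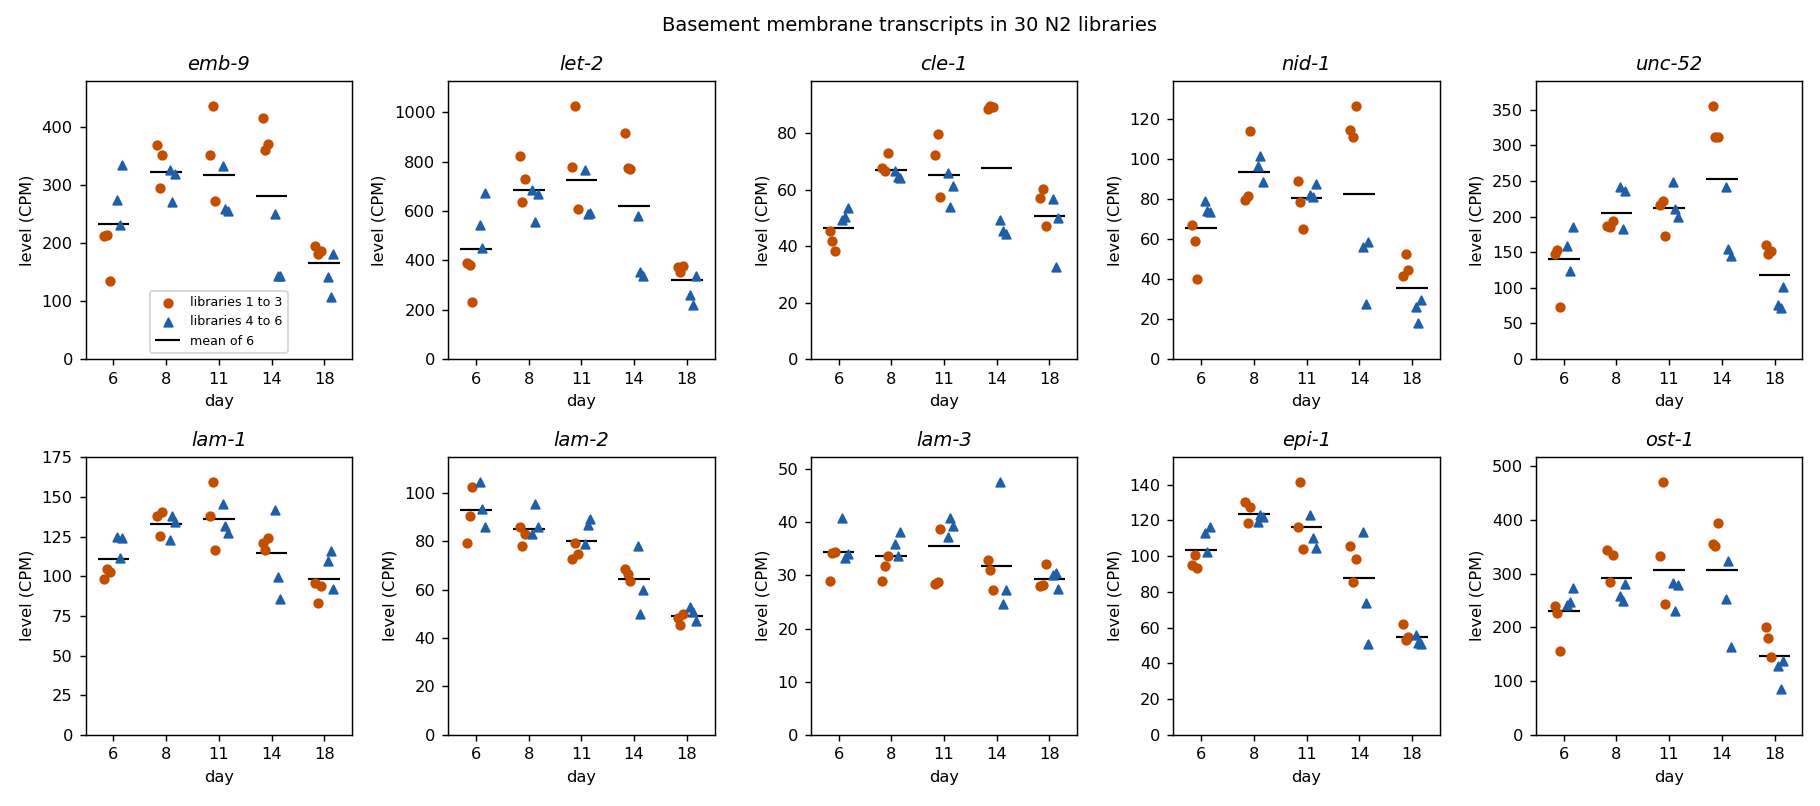
Level of each basement membrane gene (CPM, linear axis from 0) in each of 30 N2 libraries by day, with libraries 1 to 3 and 4 to 6 marked and a line at the mean of 6. The laminin gene lam-2 steps down from a mean of 92.8 CPM at day 6 to 49.0 CPM at day 18, and at day 14 the library numbers part for emb-9, let-2, cle-1, nid-1, unc-52 and ost-1.

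By day 18, the laminin genes lam-2 and epi-1, the nidogen gene nid-1 and the SPARC gene ost-1 had fallen below their day 6 level, and none of the 10 genes was higher. Of all 16710 genes tested, 28% were lower and 29% higher at that age. The median log2 fold change of the 10 genes was -0.49, against -0.01 over all genes tested. Before that, several of the genes had been above day 6. At day 8 cle-1 was higher (5.55% of all genes higher, 6.12% lower). At day 11 let-2, cle-1, lam-1 and unc-52 were higher and lam-2 lower (24.1% and 19.9% of all genes). At day 14 cle-1 and unc-52 were higher and lam-2 lower (29.8% and 26.9%). The sharpest step was the last one. Between day 14 and day 18, 8 of the 10 genes fell and none rose, while 23.5% of all genes fell and 27.5% rose, and the median log2 fold change of the 10 was -0.72 against 0.05 over all genes. In libraries 1 to 3 alone 9 genes fell, and in libraries 4 to 6 alone 5, where emb-9 (-0.33, adjusted p = 0.293), cle-1 (-0.001) and lam-2 (-0.32, adjusted p = 0.068) did not pass. Over all genes, 10392 were called in either direction in the first of these fits and 5705 in the second, against 8520 with all libraries. Between days 8 and 11 none of the 10 passed the test (18.0% of all genes higher and 11.7% lower), and between days 11 and 14 lam-2 and epi-1 fell (10.1% higher and 4.52% lower). Here and below, calls are at a Benjamini-Hochberg adjusted p under 0.05 over all genes in edgeR's quasi-likelihood test.

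**Figure D2:**
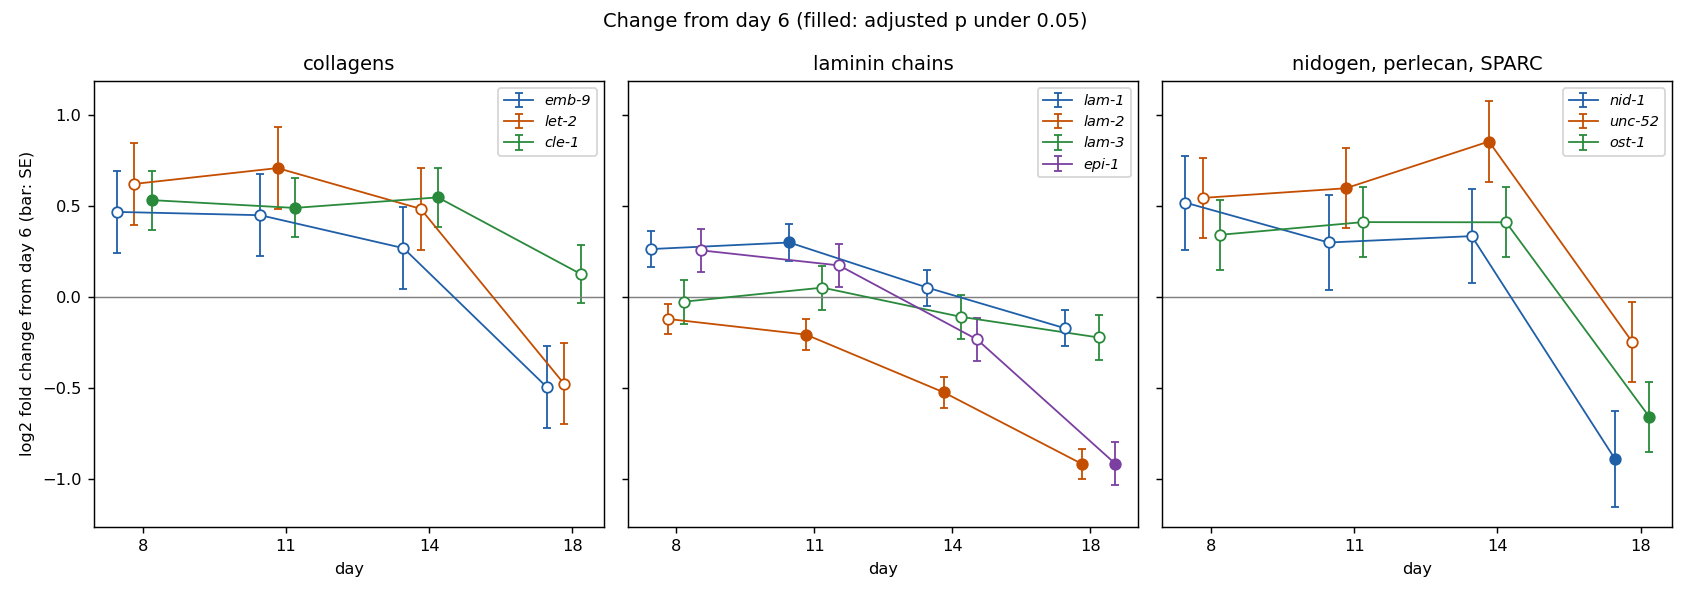
Fitted log2 fold change from day 6 (vertical axis) of the 10 genes at days 8, 11, 14 and 18 in N2, with bars for the standard error and filled points where the adjusted p was under 0.05 (6 libraries an age). At day 18, lam-2, epi-1, nid-1 and ost-1 are called lower, at -0.92, -0.92, -0.89 and -0.66.

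Laminins are trimers that join an alpha, the beta and the gamma chain, and in C. elegans the beta and gamma chains are each made by a single gene. The gamma chain gene lam-2 (chromosome X, 7143846 to 7151239, WBcel235) ran from 79.3 to 104.5 CPM at day 6 with a median of 92.1. At day 8 it ran from 77.9 to 95.45 CPM with a median of 84.5, and at day 11 from 72.8 to 89.3 CPM with a median of 79.0. At day 14 it ran from 50.05 to 77.9 CPM with a median of 65.0, and at day 18 from 45.55 to 52.7 CPM with a median of 48.9. The median stepped down at each age, and from day 14 no library reached the lowest one of day 6. The log2 fold change from day 6 was -0.53 ± 0.08 (SE) at day 14 (edgeR adjusted p = 3.79e-06) and -0.92 ± 0.08 at day 18 (adjusted p = 5.48e-11), which is 1.89-fold lower in 6 of 6 libraries. Both calls held in libraries 1 to 3 alone and in libraries 4 to 6 alone. The day 11 change was small, at -0.21 ± 0.08 (edgeR adjusted p = 0.0434), and it was lost when any of day 6 libraries 3, 4 or 5 or day 11 libraries 1 to 4 was left out (adjusted p = 0.0655 to 0.103).

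The alpha chain gene epi-1 (chromosome IV, 10666823 to 10679291) fell as far by day 18 but later. Its day 6 libraries ran from 93.3 to 116.5 CPM with a median of 101.5, and its day 8 libraries from 119 to 130.5 CPM with a median of 123. At day 14 they were spread from 51.1 to 113 CPM with a median of 91.8, and at day 18 they lay close together between 51.05 and 62.1 CPM with a median of 54.01. Every day 18 library was thus below every day 6 library, while day 14 spanned both. The log2 fold change from day 6 was -0.92 ± 0.12 at day 18 (edgeR adjusted p = 8.75e-08), 1.89-fold lower, and it was called in libraries 1 to 3 alone and in libraries 4 to 6 alone. At day 14 it was -0.235 ± 0.12 (adjusted p = 0.0907), and it passed when day 14 library 1 or 4 was left out (adjusted p = 0.0432 and 0.0239).

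The other laminin chains moved little. The second alpha chain gene, lam-3 (chromosome I, 10608466 to 10621435), is the alpha chain of a separate laminin trimer. It had medians of 34.2, 33.7, 38.03, 29.2 and 29.1 CPM at days 6, 8, 11, 14 and 18. Its largest change from day 6 was -0.22 ± 0.12 on the log2 scale at day 18 (edgeR adjusted p = 0.116), and it passed the test at no age. Without day 14 library 4, the highest of its age at 47.6 CPM, its day 14 value was -0.26 (adjusted p = 0.0304). The beta chain gene lam-1 (chromosome IV, 5173332 to 5183746) had medians of 108, 136, 135, 119 and 94.6 CPM over the 5 ages. It was higher at day 11, by 0.30 ± 0.10 on the log2 scale (adjusted p = 0.0151), a call lost without day 11 library 2 (adjusted p = 0.0511) and in libraries 4 to 6 alone (0.17, adjusted p = 0.409, against 0.42 in libraries 1 to 3). At day 18 it stood at -0.17 ± 0.10 (adjusted p = 0.132).

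Laminin chains work as parts of trimers, with lam-3 and epi-1 in separate ones. The ratios between their levels were read within each library, per kilobase of exon, which takes out depth and scaling. The secreted trimer holds beta and gamma chains in equal parts. The ratio of lam-1 to lam-2 ran from 1.025 to 1.48 at day 6 and from 1.875 to 2.33 at day 18, and the 2 ages did not overlap. Its mean was 1.23 ± 0.15 (SD, n = 6) at day 6, then 1.60 ± 0.09, 1.75 ± 0.25, 1.83 ± 0.21 and 2.05 ± 0.16 at days 8, 11, 14 and 18. All 4 later ages were above day 6 in a 2-sided exact permutation test (p = 0.00216, 0.00433, 0.00433 and 0.00216, adjusted p = 0.0054 to 0.00866 over 20 ratio tests), where 0.00216 is the smallest p that 6 against 6 libraries allow. At day 8 the rise was 0.54 on the log2 scale in libraries 1 to 3 and 0.23 in libraries 4 to 6.

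The balance between the alpha chains turned late. The ratio of lam-3 to epi-1 ran from 0.347 to 0.438 at day 6 and from 0.537 to 0.702 at day 18. Its mean was 0.395 ± 0.036 at day 6 and 0.641 ± 0.059 at day 18 (SD, n = 6), a 1.62-fold rise (exact permutation p = 0.00216, adjusted p = 0.0054). The 30 day 6 libraries of the second N2 set ran from 0.362 to 0.637 with a mean of 0.466, and so overlapped the day 18 range. Within the time course, the ratio was lower than day 6 at day 8 (mean 0.326, adjusted p = 0.018 in the same exact test). It did not pass at days 11 and 14 (adjusted p = 0.476 and 0.424). At these 2 ages its log2 difference from day 6 had opposite signs in the 2 sets of library numbers, at -0.35 and -0.10 in libraries 1 to 3 and 0.10 and 0.375 in libraries 4 to 6. Both alpha chains together lost ground against the beta chain. The ratio of lam-3 plus epi-1 to lam-1 fell from a mean of 0.683 ± 0.016 at day 6 to 0.646, 0.614, 0.569 and 0.484 ± 0.057 at day 18, and all 4 later ages were lower (exact permutation test, adjusted p = 0.03, 0.0118, 0.0054 and 0.0054). In the second N2 set at day 6 this ratio ran from 0.583 to 0.766, a range that holds the day 8 and day 11 means.

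**Figure D3:**
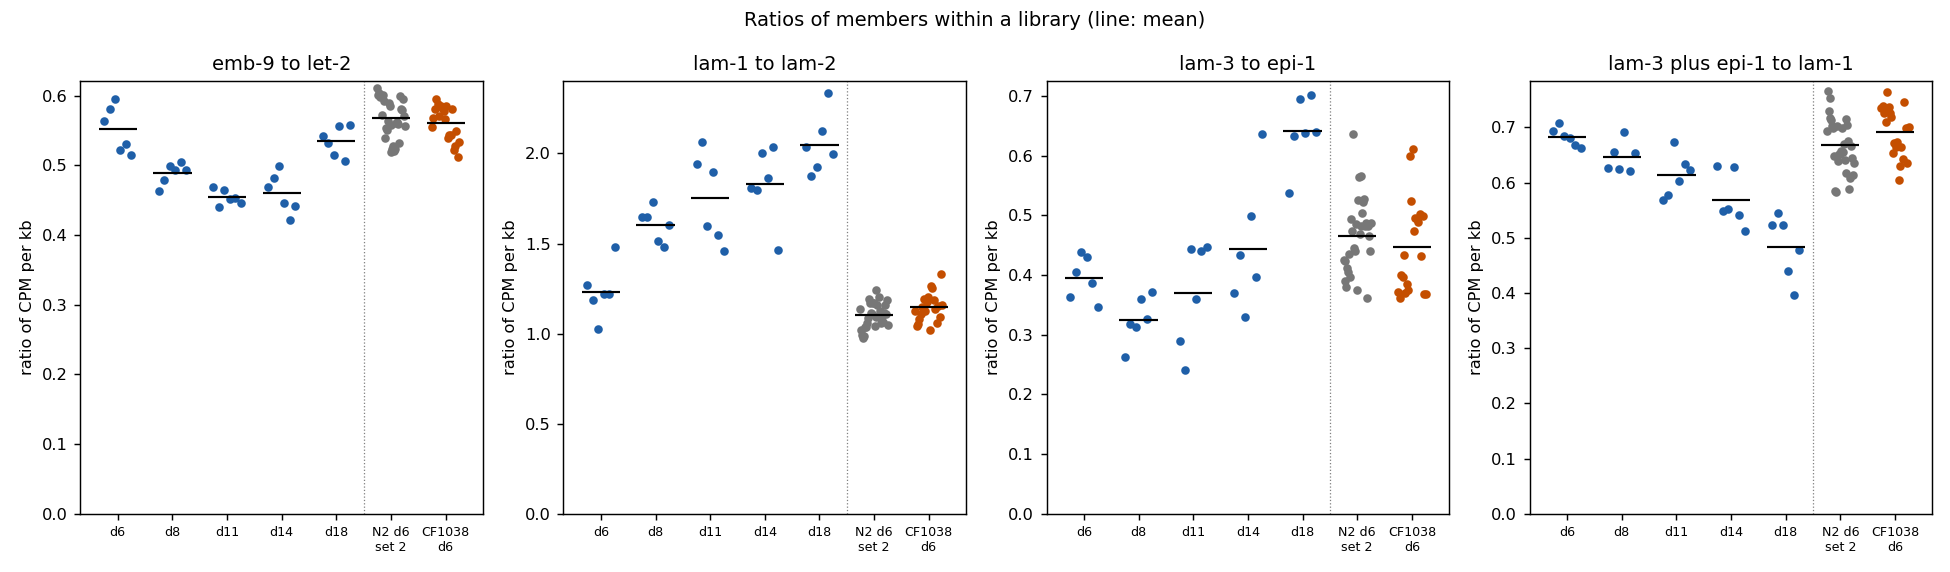
Ratio of the levels of 2 members (CPM per kilobase of exon, linear axis from 0) in each library of the 5 N2 ages, the second N2 set and CF1038, with a line at each group mean. The ratio of lam-1 to lam-2 climbs from a mean of 1.23 to 2.05 with age, while emb-9 to let-2 dips to 0.454 at day 11 and is back at 0.535 at day 18.

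The type IV collagen chains emb-9 (chromosome III, 9336881 to 9344447) and let-2 (chromosome X, 16380597 to 16389340) assemble into a trimer in which the EMB-9 chain outnumbers the LET-2 chain. For emb-9 the day 6 libraries ran from 134 to 333 CPM with a median of 222. Medians were then 322, 302 and 304 CPM at days 8, 11 and 14, and 181 CPM at day 18, where libraries ran from 107 to 194 CPM. The day 14 libraries were split, with 360 to 414 CPM in libraries 1 to 3 and 143 to 249 CPM in libraries 4 to 6. let-2 had the same profile at a higher level, with medians of 420, 678, 686, 675 and 344 CPM. It was higher at day 11 by 0.71 ± 0.23 on the log2 scale (1.63-fold, edgeR adjusted p = 0.0123), and by 1.25 in libraries 1 to 3 against 0.23 in libraries 4 to 6, which did not pass alone. At day 14 the direction depended on the library numbers for emb-9, at 1.02 in libraries 1 to 3 (adjusted p = 0.000129) and -0.65 in libraries 4 to 6 (adjusted p = 0.0356), and for let-2 the values were 1.28 (adjusted p = 4.48e-05) and -0.40 (adjusted p = 0.153).

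Day 18 against day 6 did not pass for either collagen chain over all libraries, at -0.50 ± 0.23 for emb-9 and -0.48 ± 0.23 for let-2 (edgeR adjusted p = 0.0627 and 0.0717). Day 6 library 3 was the lowest of its age for both genes, and without it both passed, at -0.61 and -0.60 (adjusted p = 0.023 and 0.0197). In libraries 4 to 6 the values were -0.98 and -1.04 and both passed, and in libraries 1 to 3 they were 0.01 and 0.13. From day 14 to day 18 both fell, emb-9 by 0.76 and let-2 by 0.96 on the log2 scale (adjusted p = 0.00619 and 0.000851). The let-2 fall was called in both sets of library numbers, at -1.15 and -0.64, and the emb-9 fall in libraries 1 to 3 alone, at -1.01 against -0.33.

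The collagen chains kept close to each other. Over the 30 N2 libraries of the time course, log2 levels of emb-9 and let-2 had a Pearson r of 0.979, and each was the most similar of 16709 genes to the other. This is a description over libraries that share age and library number. The ratio of emb-9 to let-2 still shifted with age. It ran from 0.515 to 0.595 at day 6, with a mean of 0.551 ± 0.033 (SD, n = 6), and its means were 0.489, 0.454 and 0.460 at days 8, 11 and 14. All 18 libraries of those 3 ages were below the lowest of day 6 (exact permutation p = 0.00216 at each age, adjusted p = 0.0054). At day 18 it was 0.535 ± 0.021, and the difference from day 6 did not pass the same exact test (adjusted p = 0.4). At day 8 the log2 difference was -0.27 in libraries 1 to 3 and -0.07 in libraries 4 to 6.

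Nidogen binds laminin and type IV collagen and helps to link their networks. nid-1 (chromosome V, 12910107 to 12917221) ran from 40.2 to 78.9 CPM at day 6 with a median of 70.4. At day 8 its median was 92.7 CPM, and at day 14 its libraries were split between 111 to 126.5 CPM in libraries 1 to 3 and 27.8 to 58.8 CPM in libraries 4 to 6. At day 18 it ran from 18.1 to 52.5 CPM with a median of 35.5, and of that age libraries 1 to 3 alone reached the lowest one of day 6. The log2 fold change was -0.89 ± 0.26 (1.85-fold lower, edgeR adjusted p = 0.00477). In libraries 4 to 6 alone it was -1.64 (adjusted p = 2.08e-05), and in libraries 1 to 3 it was -0.27 and did not pass (adjusted p = 0.249). At day 14 these values were -0.68 (adjusted p = 0.0248) and 1.07 (adjusted p = 0.00019). From day 14 to day 18 nid-1 fell by 1.22 ± 0.26, and it fell in both sets of library numbers, by 1.34 in libraries 1 to 3 and by 0.96 in libraries 4 to 6.

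Perlecan anchors body wall muscle to the basement membrane below it. unc-52 (chromosome II, 14647321 to 14684456, 17 annotated transcripts) ran from 73.7 to 185 CPM at day 6 with a median of 150.2. Its medians were 190.1, 214 and 277 CPM at days 8, 11 and 14 and 125 CPM at day 18. All 12 libraries of days 8 and 11 lay at or above 173.5 CPM, within or over the upper part of the day 6 range. It was higher by 0.60 ± 0.22 at day 11 (edgeR adjusted p = 0.0292) and by 0.85 ± 0.22 at day 14 (1.81-fold, adjusted p = 0.00172). The day 11 call was lost without day 6 library 3 or 5 or day 11 library 4 (adjusted p = 0.0568 to 0.0824). At day 14 the change was 1.38 in libraries 1 to 3 and 0.20 in libraries 4 to 6, and only the first passed. unc-52 then fell by 1.1 ± 0.22 from day 14 to day 18, with -1.08 and -1.125 in the 2 sets of library numbers, and ended at -0.25 ± 0.22 from day 6 (adjusted p = 0.348).

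The type XVIII collagen gene cle-1 (chromosome I, 8705668 to 8724279) was the only member called at day 8. Its day 6 libraries lay between 38.2 and 53.7 CPM and its day 8 libraries between 64.2 and 73.0 CPM, with no overlap, and the log2 fold change was 0.53 ± 0.16 (edgeR adjusted p = 0.0307). That call was lost without day 6 library 1, 2 or 3 or day 8 library 3 or 4 (adjusted p = 0.0511 to 0.0848), while the value stayed between 0.48 and 0.53 in these fits. In libraries 1 to 3 alone the day 8 value was 0.73 and passed, and in libraries 4 to 6 it was 0.36 (adjusted p = 0.205). cle-1 was also higher at day 11 (0.49 ± 0.16), with 0.72 in libraries 1 to 3 and 0.24 (adjusted p = 0.238) in libraries 4 to 6, and at day 14 (0.55 ± 0.16). At day 14 libraries 1 to 3 held 88.6 to 89.6 CPM and libraries 4 to 6 held 44.5 to 49.4 CPM, so the change was 1.08 in the first and -0.15 in the others. At day 18 it was at 0.12 ± 0.16 (adjusted p = 0.531). Its fall after day 14, by 0.42 on the log2 scale (adjusted p = 0.0295), was -0.001 in libraries 4 to 6 alone and was lost without any of day 14 libraries 1 to 3 or day 18 libraries 3 or 5 (adjusted p = 0.0581 to 0.107). Of its exonic bases, 3.61% overlap the neighbouring gene cdk-8.

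SPARC is a collagen-binding matrix protein that in C. elegans takes part in the deposition of type IV collagen. ost-1 (chromosome IV, 1107396 to 1110872) ran from 156 to 274 CPM at day 6 with a median of 240.3. Its medians at days 8, 11 and 14 were 283, 281 and 338 CPM, and at day 18 it ran from 85.9 to 200.2 CPM with a median of 141. It passed at day 18, with a log2 fold change of -0.66 ± 0.19 (1.58-fold lower, edgeR adjusted p = 0.00445). The change was -1.13 in libraries 4 to 6 (adjusted p = 0.000256) and -0.25 in libraries 1 to 3 (adjusted p = 0.337). From day 14 it fell by 1.07 ± 0.19 (adjusted p = 4.36e-05), with -1.06 and -1.07 in the 2 sets of library numbers.

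Per kilobase of exon, ost-1 had the highest level of the 10 genes at day 6, at 200.1 ± 34.3 CPM per kilobase (SD, n = 6), and lam-3 the lowest, at 3.63 ± 0.40. Between them stood let-2 at 76.4 ± 25.9, emb-9 at 41.4 ± 11.9, lam-1 at 18.8 ± 1.90 and lam-2 at 15.35 ± 1.60. Then came nid-1 at 13.04 ± 2.81, cle-1 at 10.6 ± 1.32, unc-52 at 9.85 ± 2.68 and epi-1 at 9.20 ± 0.84. Among lam-2, nid-1, cle-1, unc-52 and epi-1, each step of this order was smaller than the larger SD of its pair, while lam-3 lay well below epi-1. By day 18 the laminin gamma chain was at 8.11 ± 0.43, epi-1 at 4.87 ± 0.36 and lam-3 at 3.11 ± 0.19 CPM per kilobase. Lengths are of all annotated exons together, so the long unc-52 gene with its many transcripts reads low on this scale.

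The genes whose log2 levels were most like each member over the 30 N2 libraries differed from member to member. Only tested genes with a standard symbol (letters, hyphen, number) were ranked here, so genes without one could not appear. For emb-9 they were, after let-2, cpna-1 (r = 0.952) and unc-89 (r = 0.947). For unc-52 they were mup-4 (r = 0.956), spds-1 (r = 0.946) and mua-3 (r = 0.939). For lam-1 they were unc-112 (r = 0.843), epi-1 (r = 0.836) and egas-3 (r = 0.806). For lam-2 they were pks-1 (r = 0.939), clec-47 (r = 0.915) and ugt-53 (r = 0.904), and for epi-1 they were vha-5 (r = 0.913), unc-54 (r = 0.911) and clec-6 (r = 0.906). For nid-1 they were pgp-3, hum-5 and mth-1 (r = 0.977, 0.972 and 0.97), for ost-1 btb-14, pfn-3 and ttr-16 (r = 0.966, 0.959 and 0.954), and for cle-1 pho-14, wrk-1 and sdz-27 (r = 0.961, 0.931 and 0.925). Among these ranked genes lam-3 had no close match, with clr-1, lst-6 and lin-12 at r = 0.659, 0.655 and 0.639. Between members, r was lowest for cle-1 with lam-3 (-0.06) and lam-2 (0.10), and for lam-3 with ost-1 (0.05). These values describe libraries that share ages and library numbers.

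In CF1038 at day 6, the laminin genes lam-1, lam-2 and lam-3 and cle-1 were lower than in the 30 N2 libraries, and no member was higher. Of 16126 genes tested, 20.7% were lower and 18.0% higher. The differences were small. lam-2 ran from 62.1 to 132.7 CPM in CF1038 with a median of 100.8, and from 77.8 to 165.2 CPM in N2 with a median of 122.2. Most of the range was shared, and the log2 fold change was -0.31 ± 0.08 (1.24-fold lower, edgeR adjusted p = 0.002). lam-1 had medians of 111 and 135 CPM (-0.25 ± 0.07, adjusted p = 0.00517) and lam-3 medians of 37.2 and 44.3 CPM (-0.27 ± 0.085, adjusted p = 0.00981). For cle-1 the medians were 28.04 and 34.02 CPM (-0.285 ± 0.08, adjusted p = 0.00486).

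The type IV collagen chains did not pass in CF1038, and the sign of their difference depended on the libraries used. For emb-9 the medians were 174 and 175 CPM, with a log2 fold change of 0.02 ± 0.125, and for let-2 they were 320 and 336 CPM, with 0.045 ± 0.12. In libraries 11 to 20 of both strains the 2 genes stood at -0.12 and -0.10. With the 6 time-course libraries as controls they stood at -0.46 and -0.50, and neither was called. epi-1 (-0.16 ± 0.10), nid-1 (-0.22 ± 0.10), unc-52 (-0.27 ± 0.19) and ost-1 (-0.06 ± 0.13) did not pass either (edgeR adjusted p = 0.0843 to 0.74), and a p above the threshold does not show that they were alike. With library number 1 to 20 as a block in the fit, epi-1, nid-1 and unc-52 were called lower. They stood at -0.305, -0.339 and -0.559 there (edgeR adjusted p = 0.000634, 0.00533 and 0.000651). None of the 4 ratios between members passed in CF1038. The nearest was lam-1 to lam-2, at a mean of 1.145 ± 0.08 in 20 CF1038 libraries and 1.102 ± 0.07 in 30 N2 libraries (permutation test, p = 0.0473, adjusted p = 0.0676). Both means lay under that of every later age of the time course.

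**Figure D4:**
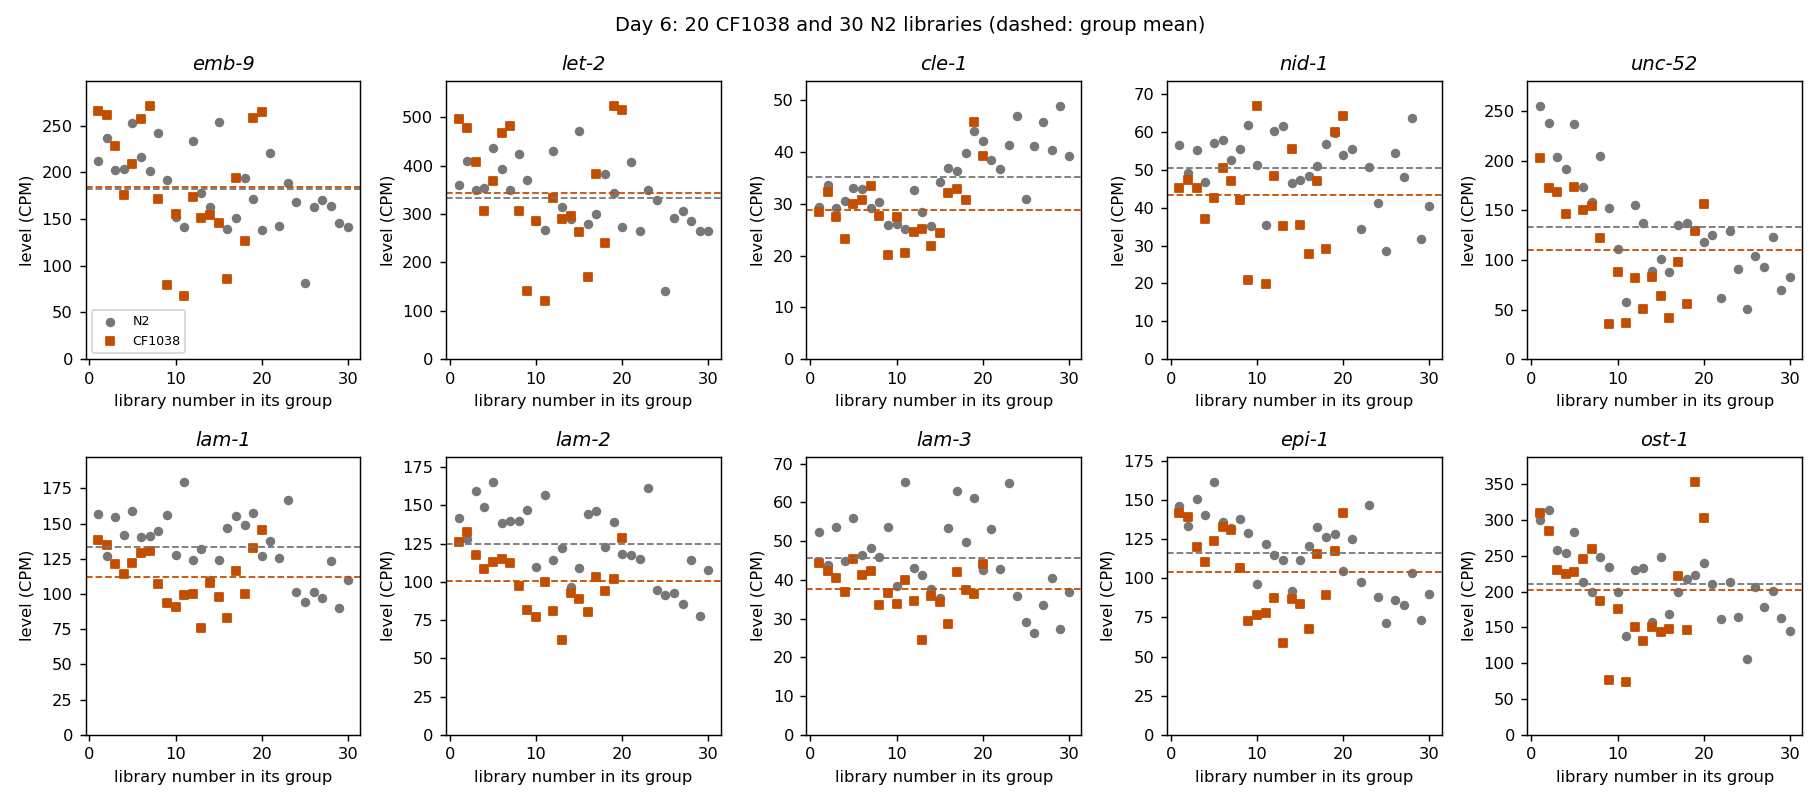
Level of each basement membrane gene (CPM, linear axis from 0) against library number in its group for 30 N2 and 20 CF1038 libraries at day 6, with dashed lines at the group means. Levels change along the library numbers in both strains: unc-52 lies between 123 and 255 CPM in libraries 1 to 8 of the 2 strains, while CF1038 libraries 9 to 18 lie between 35.15 and 98.2 CPM.

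Levels in this set also followed library number. unc-52 ran from 123 to 202.5 CPM in CF1038 libraries 1 to 8, from 35.15 to 98.2 CPM in libraries 9 to 18, and was at 129 and 157 CPM in libraries 19 and 20. In N2 its libraries 1 to 8 held 158 to 255 CPM, and libraries 21 to 30 held 50.3 to 129 CPM. The spread of unc-52 over the 30 N2 libraries was wide, with a coefficient of variation of 41.25% against a median of 13.2% for 500 genes of like level, and for the other members it was 17.3% to 23.5%. Strains were also compared within like library numbers. In libraries 1 to 10 of both strains lam-1, lam-2 and lam-3 stood at -0.27, -0.36 and -0.26, and in libraries 11 to 20 at -0.41, -0.45 and -0.46, all called by edgeR (adjusted p = 0.00234 to 0.0101). The laminin gene epi-1 stood at -0.21 and -0.33 and was called only in the second (edgeR adjusted p = 0.125 and 0.0379). cle-1 stood at -0.07 and -0.22 and was called in neither. With N2 libraries 21 to 30 as controls, cle-1 alone was called (-0.51, adjusted p = 0.00035), with lam-1, lam-2 and lam-3 at -0.04, -0.07 and -0.05. With the 6 N2 libraries of the time course as controls, cle-1 (-0.81) and nid-1 (-0.72) were called and lam-1, lam-2 and lam-3 were at -0.11, -0.01 and 0.008.

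The 2 sets of N2 libraries at day 6 share strain, age and medium, and members differed between them. emb-9, let-2, cle-1 and nid-1 were lower in the second set of 30 than in the first set of 6, by 0.47, 0.54, 0.52 and 0.50 on the log2 scale (edgeR adjusted p = 0.0228, 0.0119, 0.00241 and 0.00699), and none was higher. Of 16703 genes tested, 6.51% were lower and 12.3% higher. These differences are as large as several of those between ages, and larger than the 4 strain differences that passed. For lam-2 the second set stood at 0.31 ± 0.12 (adjusted p = 0.067), and for epi-1 at 0.05 ± 0.13.

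Genes that receive, build or cut the matrix were described from lists chosen by function, with earlier results of these data known. Of 14 receptors and anchors, 9 were lower and 1 higher at day 18 than at day 6 (28% and 29% of all genes tested), with a median log2 fold change of -0.29 against -0.01 over all genes tested. The PINCH gene unc-97, part of the integrin attachment complex of muscle, fell from 29.2 ± 2.37 to 17.4 ± 1.39 CPM (SD, n = 6), with a log2 fold change of -0.75 ± 0.085 (edgeR adjusted p = 6.48e-09). The integrin beta gene pat-3 fell from 156 ± 15.8 to 113 ± 10.2 CPM (adjusted p = 3.21e-05), and the vinculin gene deb-1 fell by 0.73 ± 0.15 on the log2 scale (adjusted p = 8.6e-05). The dystroglycan gene dgn-1, a receptor for laminin, rose from 34.6 ± 5.21 to 59.0 ± 7.67 CPM (0.77 ± 0.10, adjusted p = 9.6e-08). The list's counts of lower genes at day 18 were 7 in libraries 1 to 3 and 6 in libraries 4 to 6. Over all genes, 9175 and 8379 were called in either direction in these fits. dgn-1 was higher at days 8, 11 and 14 as well, by 0.45, 0.555 and 0.93 on the log2 scale.

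Of the 8 enzymes and factors that modify or secrete collagen, 7 were higher at day 14 and none lower (29.8% and 26.9% of all genes), with a median of 0.68 against 0.01 over all genes. In libraries 1 to 3 alone 7 were higher, and in libraries 4 to 6 alone 3, with 11226 and 6328 of all genes called in either direction. dpy-18, a prolyl 4-hydroxylase alpha subunit, rose from 38.4 ± 2.25 CPM at day 6 to 68.8 ± 7.95 CPM at day 14 (0.84 ± 0.08, edgeR adjusted p = 7.92e-11) and stayed higher at day 18, at 54.04 ± 3.25 CPM (adjusted p = 1.48e-06). The related phy-3 rose by 0.70 ± 0.20 at day 14 and by 1.501 ± 0.20 at day 18, when it reached 3.41 ± 0.997 CPM. These 2 were the ones called higher at day 18, a share near the 29% of all genes, with the median of the list at 0.20. In libraries 1 to 3 alone 5 were called higher, in a fit with 9175 genes called in either direction. The collagen chains emb-9 and let-2 stood at -0.50 and -0.48 at that age.

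Of 12 proteases and protease inhibitors of the matrix tested, 7 were higher and 1 lower at day 14, when 29.8% and 26.9% of all genes were. At day 18, 3 were higher and 3 lower, both near the shares of all genes (29% and 28%). The matrix metalloproteinase genes zmp-1 and zmp-4 rose at both ages, zmp-1 from 3.26 ± 0.28 to 6.90 ± 1.58 CPM at day 14 and 6.77 ± 0.41 CPM at day 18 (edgeR adjusted p = 8.34e-08 and 8.89e-08). At day 18 zmp-3 fell by 0.80 ± 0.18 and gon-1, an ADAMTS protease gene, by 0.95 ± 0.23 (adjusted p = 0.000377 and 0.000887), and gon-1 was lower at day 14 too. In libraries 4 to 6 alone the counts were 3 higher and 1 lower at day 14 and 2 higher and 5 lower at day 18. Over all genes, 6328 and 8379 were called in either direction in these fits. Of 11 other matrix proteins, 3 were higher and none lower at day 14, near the 29.8% of all genes for those higher. In libraries 1 to 3 alone 8 were higher and in libraries 4 to 6 none, with 11226 and 6328 of all genes called in either direction. At day 18 the netrin gene unc-6 was lower (-0.645 ± 0.14, adjusted p = 0.000163) and the transmembrane collagen gene col-99 higher (0.40 ± 0.17, adjusted p = 0.0434).

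**Figure D5:**
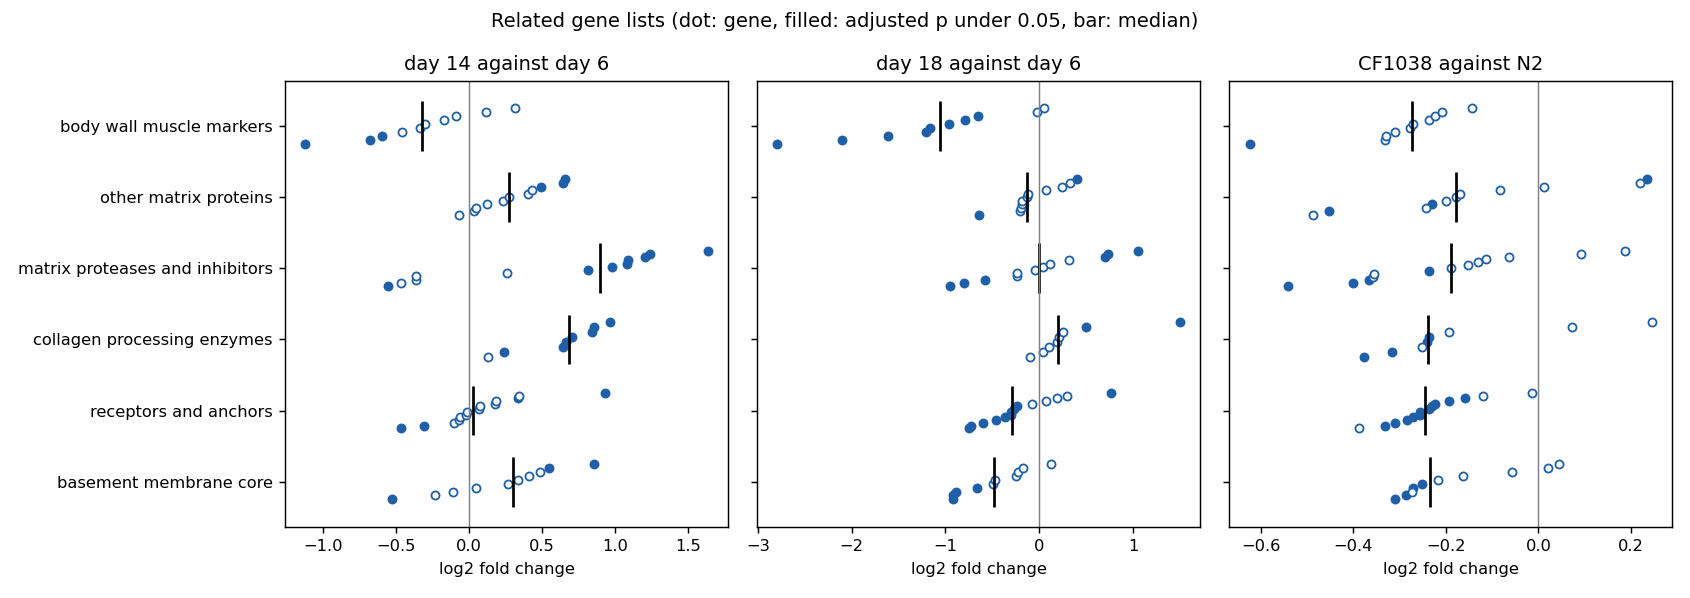
Log2 fold change (horizontal axis) of each gene in 6 lists for day 14 and day 18 against day 6 in N2 and for CF1038 against N2, with filled points at an adjusted p under 0.05 and a bar at each list's median. At day 14 the collagen processing enzymes have their median at 0.68, at day 18 the receptors and anchors have theirs at -0.29, and body wall muscle markers reach -2.79.

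Body wall muscle markers were lower at day 18, the age at which 4 of the 10 members were. Of 10 markers, 8 were lower and none higher (28% and 29% of all genes tested). Among the 8 were the myosin gene unc-54 (905.5 ± 249 to 211.5 ± 58.01 CPM) and the troponin gene unc-27 (a mean of 312 to 45.1 CPM). The sum of the 10 markers had means of 2514, 2663, 2103, 1710 and 836 CPM at days 6, 8, 11, 14 and 18, while the sum of the 10 basement membrane genes had means of 1502, 2038, 2077, 1911 and 1066 CPM. From day 6 to day 14 the mean muscle sum went from 2240 to 2205 CPM in libraries 1 to 3 and from 2787 to 1214 CPM in libraries 4 to 6. The mean basement membrane sum went from 1272 to 2416 CPM and from 1733 to 1407 CPM in the same libraries. The sum of 5 hypodermal markers went from 1517 to 596.5 CPM between days 6 and 18 and that of 5 intestinal markers from 26150 to 11970 CPM. Those of 5 somatic gonad, 6 neuronal and 5 pharyngeal markers went from 146.1 to 134.9, 415.1 to 417.8 and 212.8 to 240.2 CPM. Those of 7 germline and oocyte, 5 embryo and 2 coelomocyte markers went from 2936 to 2262, 9.76 to 3.08 and 3.19 to 1.74 CPM. The sum of 6 sperm markers rose from 3.22 to 380.3 CPM. No marker of these lists was at 0 in the summed groups. Single genes did not always follow the sums. Called lower and higher at day 18 were 2 and 1 somatic gonad, 3 and 1 neuronal and 0 and 0 pharyngeal markers. The counts were 3 and 1 for hypodermal, 4 and 0 for intestinal and 3 and 1 for germline and oocyte markers. The median log2 fold change was -0.27 for somatic gonad, -0.37 for neuronal and -0.09 for pharyngeal markers. The part of these shifts in the members' values was not tested.

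In CF1038, 11 of 14 receptors and anchors were lower and none higher (20.7% and 18% of all genes tested), with a median log2 fold change of -0.25 against -0.01 over all genes tested. The integrin alpha gene ina-1 was at 43.5 ± 4.22 CPM in CF1038 and 50.8 ± 4.71 CPM in N2 (-0.22 ± 0.04, edgeR adjusted p = 2.3e-05). The discoidin domain receptor gene ddr-1 (-0.28 ± 0.06), dgn-1 (-0.27 ± 0.07) and unc-97 (-0.23 ± 0.06) were lower by like amounts. Of the 8 collagen processing genes, pdi-2 (-0.38 ± 0.06, adjusted p = 6.75e-07), pxn-2, dpy-18 and pxn-1 were lower and none higher. Of 13 proteases and inhibitors, zmp-3 (-0.54 ± 0.08, adjusted p = 5.04e-07), zmp-1, adt-2 and timp-1 were lower and none higher, where 20.7% of all genes were lower. Of 11 other matrix proteins, unc-6 (-0.45 ± 0.12) and ten-1 (-0.23 ± 0.07) were lower, a share near that of all genes, and the spondin gene spon-1 was higher (0.23 ± 0.08). The muscle marker sum was 683 to 2904 CPM in CF1038 and 1123 to 3328 CPM in N2, with 1 of 10 markers, myo-3, called lower (5 with all 36 N2 libraries as controls). The median log2 fold change of these 10 was -0.27. Other markers called lower and higher were 3 and 1 of 5 somatic gonad, 3 and 0 of 6 neuronal and 3 and 0 of 5 intestinal. Of 5 hypodermal, 5 pharyngeal and 7 germline and oocyte markers they were 1 and 0, 0 and 0, and 0 and 3. Of 6 sperm, 4 embryo and 2 coelomocyte markers they were 0 and 5, 1 and 1, and 2 and 0. The part of tissue content was not tested. Receptors and anchors called lower were 11 in libraries 1 to 10 of both strains and 12 in libraries 11 to 20. Over all genes, 6777 and 5855 were called in either direction in these fits. With N2 libraries 21 to 30 as controls 2 receptors and anchors were called lower, and with the 6 time-course libraries 1. Collagen processing genes called lower were 1 with either. Fewer genes were called in all with these controls, 2875 and 3477.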

How the data were processed

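Expected counts per gene of 80 whole-worm RNA libraries were used as deposited by the authors, with paired reads of 150 bases. Per the submitters' processing notes, FastQC, STAR 2.7.11b and RSEM 1.3.3 were used with the WBcel235 genome. Neither library kit nor strandedness is stated in the sources used here, so reads of overlapping genes cannot be told apart by strand. A share of 2.73% of values was not whole, and rounding preceded every test. Names and positions came from the Ensembl annotation of the same build.

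Libraries were grouped by strain, age and set from their labels. Genes with low counts were removed with filterByExpr, libraries scaled by TMM, and groups compared with edgeR 4.0.16 (quasi-likelihood, robust) in R 4.3.3, with p-values adjusted by Benjamini-Hochberg over all genes tested. The 30 time-course libraries were fitted together, and the 50 libraries of CF1038 and the second N2 set apart from them. Levels are TMM-scaled CPM, per kilobase of merged exons where genes are compared. Ratios were compared on the log2 scale by exact permutation of 6 against 6 libraries or 100000 permutations. Correlations used log2(CPM + 0.5). Code was tested on simulated data. DESeq2 1.42.0 and other settings were alternatives.

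The members and lists were chosen with earlier results of these data known. The text names all 10 members. Of each other list it names up to 4 genes with the smallest adjusted p at day 18 and up to 4 in CF1038. It also names the 3 genes most correlated with each member among tested genes with a standard symbol. Genes other than these are markers named beside a result. No 2 libraries of a group agreed within sampling noise (lowest chi-square per degree of freedom 7.55). Ribosomal RNA took 0.131% to 2.16% of counts.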

Additional observations from a re-analysis of the deposited data

Results flagged for a closer look

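The lam-3 level of day 14 library 4, 47.59 CPM, lay far from the other libraries of its age. The next highest was 33.0 CPM, and the gap between them was 0.635 of the group's whole range, above the critical value for 6 libraries in Dixon's test. Among 70 groups looked at, members and ratios together, this was the only 1 past that value, and chance flags about 1 in 20 groups.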

How the results depend on the processing

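Of 1120 refitted fold changes of members, 974 kept direction and call, 43 lost the call, 71 gained one and 32 turned direction, 28 of these called in neither fit. lam-2 at days 14 and 18 and epi-1 at day 18 were called against day 6 under all alternatives run. Values that turned at day 14 in libraries 4 to 6 were those of emb-9 (-0.653), let-2 (-0.401), cle-1 (-0.149), lam-1 (-0.148), nid-1 (-0.676) and ost-1 (-0.052). Others in libraries 4 to 6 were lam-3 at day 8 (0.01) and cle-1 at day 18 (-0.151). In libraries 1 to 3 they were lam-3 at day 11 (-0.049) and emb-9 (0.008), let-2 (0.132) and unc-52 (0.298) at day 18. With 36 controls they were lam-3 at day 11 (-0.192) and lam-1 at day 14 (-0.054). Leaving out 1 library, lam-3 ran from -0.07 to 0.029 at day 8 and from -0.177 to 0.038 between days 14 and 18, and lam-1 from -0.015 to 0.123 at day 14. In CF1038, emb-9 and let-2 turned to -0.062 and -0.052 with 36 controls, -0.456 and -0.497 with 6 time-course controls and -0.123 and -0.099 in libraries 11 to 20. lam-3 turned to 0.008 with 6 controls, and epi-1, unc-52 and ost-1 to 0.106, 0.247 and 0.206 with N2 libraries 21 to 30. Members called higher or lower changed as follows, and the cause was not tested. At day 8, 1 higher became 3 with DESeq2, 7 with 12 libraries fitted, 8 in libraries 1 to 3, 0 in libraries 4 to 6 and 6 with 36 controls (1 lower), or 0 to 2 leaving out 1 library. At day 11, 4 higher became 7 in libraries 1 to 3 and 0 in libraries 4 to 6, and 1 lower became 0 without the filter, in libraries 4 to 6 and with the block, or 0 to 1 leaving out 1 library. At day 14, 2 higher became 7, 0 and 6 in libraries 1 to 3, 4 to 6 and with 36 controls, or 2 to 4 leaving out 1, and 1 lower became 3 in libraries 4 to 6 and 2 with 36 controls, or 1 to 3. At day 18, 4 lower became 2 and 7 in libraries 1 to 3 and 4 to 6, and 0 higher became 1 in libraries 1 to 3 and 1 with 36 controls. Also called lower at day 18 were emb-9 (-0.49) and lam-3 (-0.222) with 12 libraries, and lam-1 (-0.295) and lam-3 (-0.465) with 36 controls. From day 14 to 18, 8 lower became 5 in libraries 4 to 6, an alternative added after seeing the data. Genes called at day 8 (1950) became 3805, 3837, 523 and 7979 with 12 libraries, libraries 1 to 3, 4 to 6 and 36 controls, or 1190 to 2191 leaving out 1, and at day 11 (7338) 4557 in libraries 4 to 6. In libraries 1 to 3, libraries 4 to 6 and with 36 controls, genes called at day 14 (9477) were 11226, 6328 and 11013. At day 18 (9519) they were 9175, 8379 and 11607. In CF1038, genes called (6238) and members lower (4) became 3477 and 2 with 6 controls, and 2875 and 1 with N2 libraries 21 to 30. Log2 ratios in libraries 1 to 3 and 4 to 6 were -0.271 and -0.072 (emb-9 to let-2, day 8), -0.13 and 0.047 (day 18), and 0.536 and 0.234 (lam-1 to lam-2, day 8).

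Library numbers were not taken to pair samples. Correlations of same-numbered libraries' deviations exceeded 0.1 in 28 of 60 pairs of the time course (-0.36 to 0.67, median 0.06). They exceeded it in 17 of 20 pairs of CF1038 and N2 (-0.49 to 0.8, median 0.37). Libraries matched best with their own number in 25 of 120 and 7 of 40 cases. With the number as a block, members lower in CF1038 were 7, with epi-1 (-0.305), nid-1 (-0.339) and unc-52 (-0.559) added, emb-9 and let-2 turned to -0.135 and -0.119, genes called were 10274, nid-1 and ost-1 between days 11 and 14 turned to -0.047 and 0.013, members lower at day 11 were 0, and at day 18 they were 6, with emb-9 and let-2 added.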
